A study of Homo sapiens with 18 samples.

Results

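RNA that HEK293 cells made during 60 min of 4-thiouridine labelling was compared with RNA made during 30 min, in 6 of the 18 libraries of the study (3 libraries at each time). HEK293 is a human embryonic kidney cell line that grows and divides continuously in culture. Both groups came from this line, received 500 µM 4-thiouridine and differed, by the labels, in labelling time only, and in both the thiolated RNA was tagged with biotin and captured on streptavidin before sequencing. The libraries were chosen by their labels alone. The other 9 labelled libraries (7.5, 15 and 45 min) entered the fits to estimate the spread and to show the course before and between. The labels do not state whether the 3 replicates were grown separately, and the p-values therefore cover only the spread among libraries, which could be technical. The labelled RNA of a long pulse contains that of a short one plus what was added later and minus what was already degraded. How much unlabelled RNA was captured with it was not tested at any labelling time. The labelled pool below therefore means all captured RNA.

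A cell makes each pre-mRNA as one long precursor, cuts out its introns over minutes, adds a poly(A) tail and exports the product to the cytoplasm, where it is degraded at a rate particular to the gene. The labelled amount of an RNA therefore stops changing early where the RNA is short-lived and keeps changing where it is stable. Its share of the labelled pool also depends on the other RNAs, and can fall while the amount stays level. Values are TPM, the number of transcripts of a gene in each 1000000 of the library, given separately for the primary transcript, which spans the whole locus with its introns, and for the mature, spliced transcripts. TPM sum to the same total in every library, so each value is a share of the labelled pool, and an amount per cell cannot be read from it. Changes are 60 minus 30 min on the log2(TPM + 1) scale, which understates those of low genes. Genes with a mean of at least 1 TPM over the 6 libraries were tested with limma, and a gene was called where its Benjamini-Hochberg adjusted p was under 0.05.

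Between 19277 and 20220 genes had mature RNA above 0 in the 6 libraries. Replicates of one time correlated with r of 0.89 to 0.95 across genes, which are not independent replicates. Of 15 marker genes of other cell types, 8 were listed at 0 in all 6 libraries and 3 reached a mean of 1 TPM. Summed levels were 25.6 to 45.3 TPM at 30 min and 28.6 to 37.7 TPM at 60 min. Most of these sums came from EPCAM, with means of 30.8 and 29.3 TPM. COL1A1 had 3.64 and 1.27 TPM and HBA1 2.17 and 1.56 TPM. A 45 min library (replicate 2) stood apart, with 15159 genes above 0, and results that rest on the fits were repeated without it.

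The clearest difference between the times was the loss of unspliced RNA from the labelled pool. Primary transcripts made up 17.0%, 16.0% and 19.3% of all TPM in the 3 libraries at 30 min and 7.19%, 9.69% and 11.03% in those at 60 min. The groups did not overlap. Their means were 17.4% ± 1.69 for 30 min and 9.30% ± 1.95 for 60 min (SD, 3 libraries each), with a two-sided exact permutation p of 0.1, the smallest that 3 against 3 libraries allow. For the median gene of 13728 with both kinds measured, the primary transcript was 28.9%, 25.97% and 30.8% of the gene's TPM at 30 min and 11.3%, 15.8% and 17.2% at 60 min. That is a mean of 28.5% ± 2.42 against 14.8% ± 3.06 (SD, n = 3 each, exact permutation p = 0.1). The 3 libraries at 45 min gave 14.9%, 18.1% and 22.3%, below all at 30 min and overlapping those at 60 min. In bulk RNA, fewer cells with a given transcript and less of it per cell cannot be told apart.

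**Figure D1:**
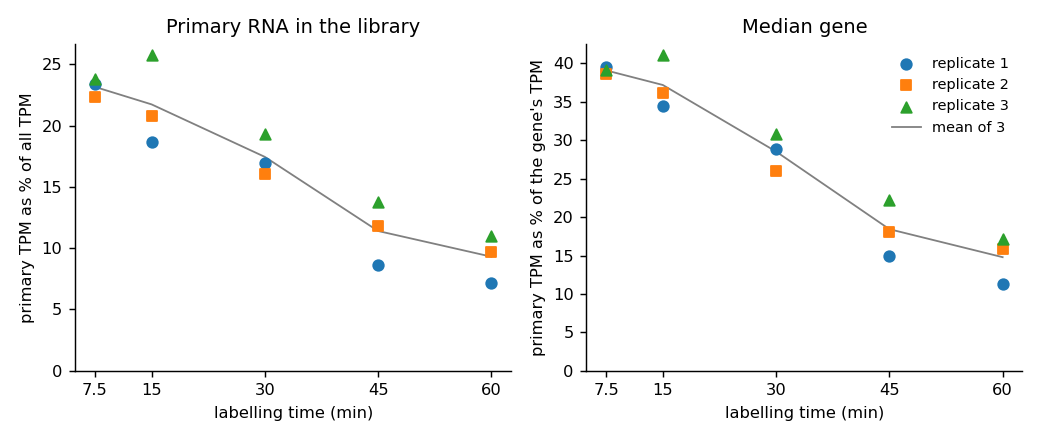
Share of primary (unspliced) RNA in each of the 15 labelled libraries by labelling time in min, as a percent of all TPM (left) and as a percent of the median gene's TPM (right); symbols are replicates and the line joins means of 3. All 3 libraries at 60 min lie below all 3 at 30 min in both panels.

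Gene by gene, the primary RNA of 10043 of 14024 genes tested fell (71.6% of genes) and that of 9 rose (0.0642%), with a median log2 change of -0.82. All 3 libraries at 60 min lay below all 3 at 30 min for 81.3% of genes and above for 0.121%. As TPM are shares, this is a change in share of the pool. Scaling each kind of RNA to a common median (median-ratio scaling) sets the median change near 0 by construction. After it 5 genes were called lower and 3 higher, and with the same-numbered libraries as pairs 51 and 102. These counts are relative to the median gene only. Without that scaling, the count of falls rests on single libraries. It was 1192 without replicate 1 of 60 min, 1732 without replicate 3 of 30 min and 6517 without replicate 2 of 30 min, while the median stayed between -0.95 and -0.63. The ratio of primary to mature RNA of the same gene, in which the library total cancels apart from a pseudocount of 0.1, fell for 6664 of 13728 genes (48.5%) and rose for 9 (0.0656%), with a median log2 change of -1.18. Without replicate 1 of 60 min, 2318 ratios were called lower, without replicate 3 of 30 min 3087, and without replicate 1 of 30 min 4235.

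The largest falls of primary RNA among genes with a mean of at least 3 TPM were a mixed set. PMF1, which encodes a kinetochore protein, had primary RNA of 65.9, 178 and 57.03 TPM at 30 min and 13.2, 10.1 and 16.8 TPM at 60 min (log2 change -2.65, SE 0.79, limma adjusted p = 0.018). Its mature RNA stood at 12.5 ± 3.09 against 19.2 ± 3.22 TPM (SD, n = 3 each), a difference that did not pass (limma adjusted p = 0.49). The others were AL353804.1, FAM215B, the pseudogene BTF3L4P2 and the readthrough locus TVP23C-CDRT4, with log2 changes of -3.40, -2.95, -2.70 and -2.68. Pseudogenes and readthrough loci share sequence with other genes, and the split of reads between them is uncertain.

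MYC, a growth-promoting transcription factor with a short-lived mRNA, showed a fall of primary RNA from 49.3, 27.96 and 31.3 TPM at 30 min to 10.7, 12.7 and 11.8 TPM at 60 min (log2 change -1.51, SE 0.26, limma adjusted p = 0.0087). Its mature RNA stood at 707, 395 and 328 TPM at 30 min and 594, 450.1 and 336 TPM at 60 min, so the groups overlapped (log2 change -0.01, SE 0.32, limma adjusted p = 0.996). The 95% interval of the mature change ran from -0.70 to 0.68.

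Of genes with a mean of at least 3 TPM of primary RNA, a symbol and groups that did not overlap, 2 passed as rising. HOXB6, a homeobox transcription factor, had primary RNA of 6.21, 18.7 and 18.6 TPM at 30 min and 36.6, 33.3 and 38.9 TPM at 60 min (log2 change 1.40, SE 0.40, limma adjusted p = 0.015). H3C4, a histone H3 gene, had 31.5, 20.2 and 30.2 TPM against 56.4, 35.5 and 45.98 TPM (0.73, SE 0.27, limma adjusted p = 0.032). H3C4 spans 0.411 kb, and how far primary and mature RNA of so short a gene can be told apart was not tested. Their mature RNA was higher in every 60 min library too, at 38.7 ± 12.6 against 65.9 ± 3.596 TPM for HOXB6 and 125 ± 22.4 against 241 ± 28.3 TPM for H3C4 (SD, n = 3 each), and neither mature change passed (limma adjusted p = 0.31 and 0.2). In the ratio of primary to mature RNA, the one rise that passed in a gene averaging 10 TPM or more of mature and 1 TPM or more of primary RNA was TXNIP, which encodes a regulator of glucose uptake, at 4.46 on the log2 scale (limma adjusted p = 0.015). Its primary RNA was 1.29, 0 and 0 TPM at 30 min and 4.34, 5.11 and 3.05 TPM at 60 min. Its primary means over the 5 times were 9.78, 10.22, 0.43, 3.17 and 4.17 TPM, so 60 min lay below 7.5 and 15 min. With values of 0 at 30 min, the size of the rise depends on the pseudocount. Among genes that passed with the same minimum levels, the largest falls of that ratio were in ZNF33B, PDF, PRR4 and ZMYM6, with changes of -5.75, -4.57, -4.26 and -3.85. Their primary RNA had means of 5.103, 6.25, 4.19 and 2.67 TPM at 30 min and 0, 0.613, 0.00667 and 0.11 TPM at 60 min, levels at which the size of the fall depends on the pseudocount.

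Splice junctions, counted separately by the authors, showed the same direction. The excised share is the fraction of junction reads from which the intron is gone, as the authors' average over 3 replicates, so no test over libraries was possible. Its median over 21782 introns of 4163 genes was 0.70 at 30 min and 0.84 at 60 min, after 0.54 at 7.5 min, 0.58 at 15 min and 0.81 at 45 min. Per intron the share was higher by at least 0.1 in 14353 (65.9%) and lower by at least 0.1 in 70 (0.321%), with a median change of 0.13. The median change was 0.099 from 30 to 45 min and 0.035 from 45 to 60 min, so most of it fell in the first of those steps. Introns under 0.5 excised numbered 3233 at 30 min (14.8%) and 642 at 60 min (2.95%).

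Introns close to the start or to the poly(A) site of their gene were the least excised at 30 min. Of 5 equal bins of introns, the one closest to the transcription start had a median excised share of 0.61 at 30 min and 0.79 at 60 min (median change 0.16), and the farthest of the 5 0.79 and 0.89 (0.096). Distance to the poly(A) site gave the same order, with median changes of 0.16 and 0.096. At the shortest labelling time the closest bins were instead the most excised. By distance to the start, the closest bin had 0.59, the farthest 0.57 and those between 0.52 to 0.53. By distance to the poly(A) site, the closest had 0.60, the farthest 0.57 and those between 0.51 to 0.52. Gene length was not held fixed, so position and gene length cannot be told apart here. Introns of lowest GC content were 0.76 excised at 30 min and changed by 0.11. Those of the highest bin were 0.64 excised and changed by 0.15. At the shortest labelling time the highest GC bin was the most excised, at 0.63 against 0.52 in the lowest. Across 5 bins of the MaxEnt score, which rates how well a splice site matches the consensus, the median change ran from 0.134 to 0.137 for the 5′ and from 0.131 to 0.1399 for the 3′ splice site. By intron length it ran from 0.121 in introns over 10000 nt to 0.145 in those of 3000 to 10000 nt.

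The excised share is given by gene group as a description, without a test of the differences. Introns of snoRNA host genes, whose introns are cut into small nucleolar RNAs, had a median of 0.32 at 30 min and 0.51 at 60 min (60 introns, 13 genes), below all introns at both times. Of the 132 introns of genes of the G1/S transition, 122 (92.4%) were higher by at least 0.1, and of the 204 introns of hnRNP genes 182 (89.2%), beside 65.9% of all introns. In 20 introns of long nuclear RNAs the count was 8 (40.0%), with a median change of 0.076.

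The largest single changes were in MRPS23 (hg19 chr17:55918622-55926600, minus strand, 7979 nt), a mitochondrial ribosomal protein gene, from 0.19 to 0.70, and in CENPN (hg19 chr16:81053882-81056201, plus strand, 2320 nt), a centromere protein gene, from 0.29 to 0.79. Introns of TTC13, LAMB1 and FBXO21 went from 0.46, 0.47 and 0.39 to 0.94, 0.94 and 0.85. At the shortest labelling time the share had been 0.39 in MRPS23, 0.40 in CENPN and 0.51 in LAMB1, above their 30 min values. The rise in these introns therefore followed a fall. In TTC13 and FBXO21 it had been 0.34 and 0.28, below their 30 min values. Choosing introns by the size of the difference favours extreme values at 30 or 60 min. The 5 largest decreases were 0.20 to 0.26 in size, in TTLL5, PI4KAP2, ANKRD26, PDHB and DLG1. In TTLL5 (hg19 chr14:76147971-76149892, plus strand, 1922 nt), a tubulin-modifying enzyme gene, the share was 0.83 at 30 min, 0.85 at 45 min and 0.58 at 60 min.

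Mature RNA differed less clearly. Of 16468 genes tested with limma, 0 were called higher (0%) and 0 lower (0%) and the smallest adjusted p was 0.18, while 1682 (10.2%) had an unadjusted p under 0.05, 1315 higher (7.99%) and 367 lower (2.23%). A fit to the 6 libraries alone called 1 higher and 2 lower, the fit without the 45 min libraries likewise 1 and 2, and the fit without filter 2 and 2. The median standard error of a change was 0.39 on the log2 scale. As a description, all 3 libraries at 60 min lay above all 3 at 30 min for 2884 genes (17.5%) and below for 1003 (6.09%). The median change was 0.12, and median-ratio scaling brought it to -0.01, with 1624 genes apart upward (9.86%) and 1804 downward (11%). Gene groups are therefore given relative to the median of all genes.

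RNA classes differed in this position. Of 12339 protein-coding genes, 2593 (21.0%) stood apart upward and 505 (4.09%) downward, with a median change of 0.18. Of 1576 long noncoding RNAs, 61 (3.87%) stood apart upward and 240 (15.2%) downward, with a median of -0.25, and pseudogenes were similar (27 upward and 135 downward of 987, median -0.35). Pseudogenes share sequence with their parent genes, and their values are uncertain. EEF1A1P5, a copy of a translation elongation factor gene, had means of 71.5 and 13.5 TPM at 30 and 60 min, GUSBP14 of 3.74 and 30.95 TPM and TYRO3P of 16.3 and 7.01 TPM.

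Replication-dependent histone mRNAs stood highest of all 25 gene groups with at least 5 genes tested. These genes supply histones for new chromatin during DNA replication. Most lack introns, and their mRNAs end not in a poly(A) tail but in a conserved stem-loop that binds the protein SLBP. A sequence matching the consensus of this element (searched on the sense strand) was found in the annotated transcripts of 19 of the 33 members tested (57.6%) and in 3 of 12306 other protein-coding genes tested (0.0244%). Many annotated histone transcripts end before it, so a missing match says only that the letters are not in the annotated sequence. Other annotated transcripts run past it, such as that of H2BC18, 1954 bases long with the stem-loop at 460. A match therefore does not show where the RNA ends or whether it lacks a poly(A) tail. The following are shown as examples of the element. They are in DNA letters, from GENCODE 29 transcripts (GRCh38), 26 bases 5′ to 3′, with the stem-loop in capitals.
HIST2H2AA3: caaaaGGCTCTTTTCAGAGCCaccca
H2AC25: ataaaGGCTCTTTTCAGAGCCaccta
H2BC18: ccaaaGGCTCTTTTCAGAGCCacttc
H2BC5: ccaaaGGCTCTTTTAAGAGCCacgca
H4C15: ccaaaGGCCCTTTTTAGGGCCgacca

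In 30 of these 33 histone genes all 3 libraries at 60 min lay above all 3 at 30 min, and in 0 below, beside 17.5% and 6.09% of all genes. The median change of the list was 0.84, or 0.72 above that of all genes, and it ran from 0.53 to 0.82 above when any one of the 6 libraries was left out. After median-ratio scaling 21 of 33 stood apart upward and 0 downward, beside 9.86% and 11% of all genes. Members apart upward were 4 of 5 linker histone H1 genes, 7 of 8 H2A, 9 of 10 H2B, 4 of 4 H3 and 6 of 6 H4, with family medians between 0.53 (H3) and 0.96 (H2A). Members of this family are near-identical in sequence, and the split of reads among them is uncertain. H4C14 and H4C15 have identical values, as do H3C14 and H3C15, so the 33 genes are 31 distinct measurements, of which 28 stood apart upward.

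The summed mature TPM of the list was 8816, 8290.4 and 6953 at 30 min and 17142, 13473 and 13546 at 60 min. H1-4, a linker histone, had 710.5, 805 and 811 TPM at 30 min and 1515, 1393 and 1272 TPM at 60 min (log2 change 0.84, SE 0.24, limma adjusted p = 0.28). H2BC18, a histone H2B gene, had 349.6, 329.9 and 317 TPM against 788, 578 and 744 TPM (1.07, SE 0.19, limma adjusted p = 0.18). HIST2H2AA3, a histone H2A gene, had 625, 639.5 and 576 TPM against 1303, 1148 and 1243 TPM (1.00, SE 0.20, limma adjusted p = 0.18). In all of these the groups did not overlap, and none of the changes passed. H2BC18 had already risen between 7.5 and 30 min (1.05, limma adjusted p = 0.0027), and its means were 161, 226, 332, 526 and 703 TPM over the 5 times. The 3 members whose groups overlapped were H1-6, H2BC12L and H2AC7, with log2 changes of 0.42, -0.03 and 0.17. H2AC7 had 118, 66.8 and 0 TPM at 30 min and 204, 55.1 and 0 TPM at 60 min.

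**Figure D2:**
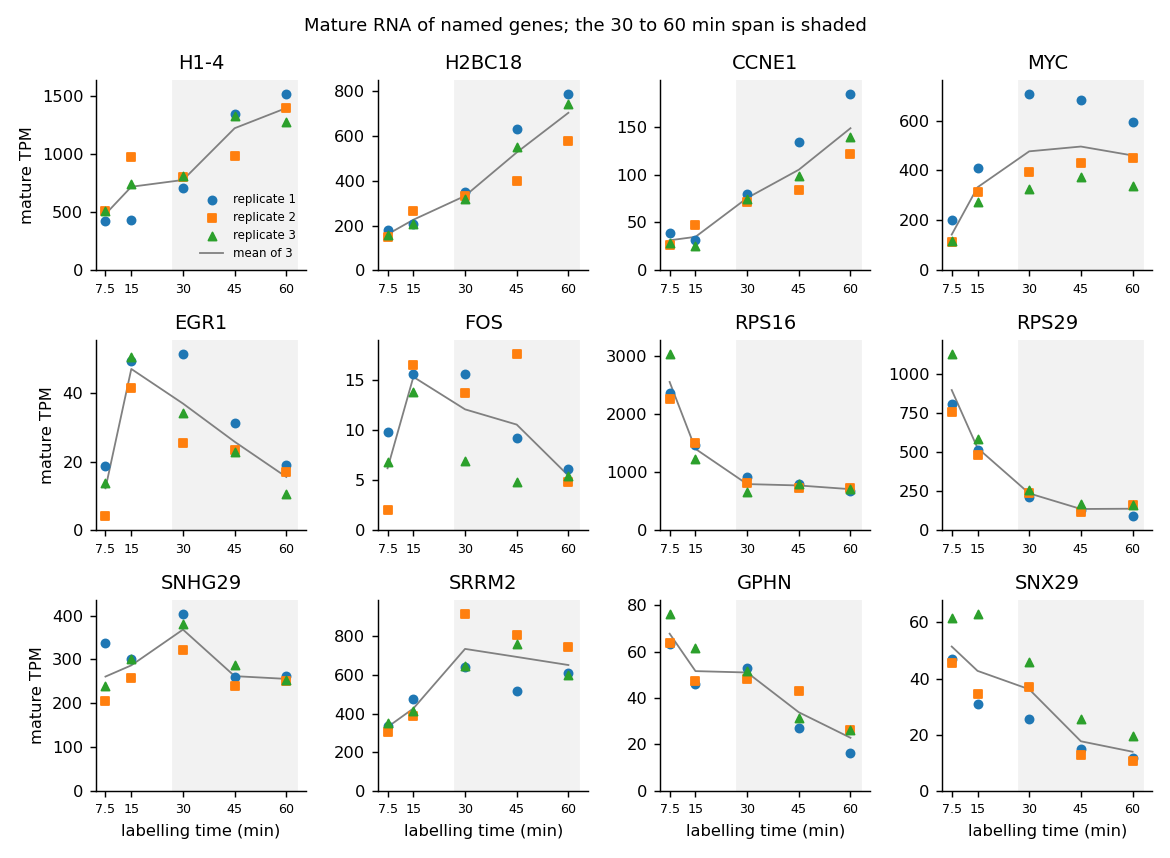
Mature TPM of 12 genes in each of the 15 labelled libraries against labelling time in min; symbols are replicates, the line joins means of 3, and each vertical axis starts at 0. H1-4, H2BC18 and CCNE1 are higher in every 60 min library than in any 30 min library, EGR1, FOS, RPS29, SNHG29, GPHN and SNX29 lower, and MYC, RPS16 and SRRM2 overlap.

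Genes of the G1/S transition, which drive entry into DNA replication, came second. Of 26 tested, 16 stood apart upward and 1 (RRM2) downward, beside 17.5% and 6.09% of all genes, with a median 0.38 above all genes, and 0.21 above without replicate 1 of 60 min. After median-ratio scaling 5 stood apart upward and 1 downward, beside 9.86% and 11% of all genes. CCNE1, the cyclin E gene, had 80.1, 71.7 and 74.8 TPM at 30 min and 184, 121 and 139.7 TPM at 60 min (log2 change 0.94, SE 0.25, limma adjusted p = 0.26). MCM7, a subunit of the replicative helicase, had 279, 244 and 306 TPM against 472, 384 and 347 TPM (0.53, SE 0.17, limma adjusted p = 0.33), and MCM4, another subunit, had means of 217 and 267 TPM. E2F3, a transcription factor of this set, had 66.8 ± 8.64 against 94.3 ± 7.99 TPM (SD, n = 3 each). RRM2, a subunit of ribonucleotide reductase, was the exception with 198 ± 13.7 against 170.2 ± 7.48 TPM (SD, n = 3 each).

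RNA polymerase subunits (13 of 30 apart upward, 0 downward) had a median 0.32 above all genes, and 0.18 without replicate 1 of 60 min. Of all genes, 17.5% stood apart upward and 6.09% downward. After median-ratio scaling 8 of the 30 subunits stood apart upward and 2 downward, beside 9.86% and 11% of all genes. POLR2A, the largest subunit of RNA polymerase II, had 114, 127 and 76.95 TPM at 30 min and 164, 149 and 147 TPM at 60 min, with no overlap. Cholesterol genes (10 of 23 upward, 1 downward, and 8 and 1 after median-ratio scaling) stood 0.27 above. Among them was MSMO1, a sterol oxidase gene, at 24.05 ± 2.78 against 50.8 ± 9.78 TPM (SD, n = 3 each).

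Several lists stood 0.15 to 0.20 above all genes. These were mitotic genes (11 of 24 upward, 0 downward), proteasome subunits (16 of 41 and 1), mitochondrial ribosomal proteins (23 of 77 and 1), RNA decay factors (13 of 43 and 1), translation factors (19 of 69 and 2) and ZNF genes, a large family of DNA-binding repressors (117 of 428 and 8), beside 17.5% and 6.09% of all genes. After median-ratio scaling, where 9.86% and 11% of all genes stood apart, the counts upward and downward were 5 and 0, 6 and 3, 10 and 1, 7 and 3, 12 and 6, and 76 and 15 in that order. Without replicate 3 of 60 min or replicate 2 of 30 min the RNA decay list stood 0.096 and 0.097 above. Some of their most abundant members overlapped, such as TOP2A and MKI67 of mitosis (means of 199 and 234 TPM against 206 and 273 TPM) and CNOT1, the scaffold of the deadenylase complex (212 against 222 TPM). Members that did not overlap were EIF4A1, an RNA helicase of translation initiation, at 863 ± 93.3 against 1084 ± 88.5 TPM, PSMD8 of the proteasome lid at 121 ± 5.01 against 150.1 ± 9.12 TPM and MRPS30 at 97.7 ± 17.8 against 126 ± 5.44 TPM (SD, n = 3 each). Of the other most abundant members of the lists, POLR1C and PRPF8 were higher in every 60 min library, and SNHG1, TAF1D, SLC3A2, CCT3, CCT5, SF3B3, EXOSC2, RPS2, ATP5F1A, HNRNPH1, PSMB4, MRPS2, EEF1A1, ZNF703, ZNF711, GAPDH, HSP90AA1 and MT-ND2 overlapped. Chaperonin, heat shock and ATF4 lists stood 0.14 to 0.19 above, but leaving out a library lowered them to 0.038 (without replicate 3 of 60 min), 0.0011 (without replicate 1 of 30 min) and 0.030 (without replicate 1 of 60 min). HSPA8, the constitutive heat shock protein, and ATF4, a stress-response transcription factor, overlapped, with means of 1087 and 761 TPM against 1296 and 929 TPM.

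Immediate early and other unstable regulators went both ways. Of 48 tested, 8 stood apart upward and 4 downward, shares near those of all genes, and the median lay 0.20 above all genes but at -0.088 without replicate 1 of 60 min, 0.075 and 0.023 without replicates 2 and 3 of 30 min, and 0.45 without replicate 1 of 30 min. Between 7.5 and 30 min, 19 of the 48 had risen and 0 had fallen, where 5.89% and 2.84% of all genes did. EGR1, a zinc finger factor induced within minutes of a stimulus, had 51.4, 25.4 and 34.1 TPM at 30 min and 18.96, 17.2 and 10.6 TPM at 60 min (log2 change -1.18, SE 0.41, limma adjusted p = 0.34), with no overlap. Its means were 12.3, 47.02, 36.95, 25.8 and 15.6 TPM over the 5 times, with the highest at 15 min, and the rise from 7.5 to 30 min had passed (limma adjusted p = 0.018). FOS, an AP-1 subunit that is also induced early, had 15.6, 13.7 and 6.91 TPM against 6.18, 4.79 and 5.44 TPM. KLF6 and ATF3, also transcription factors of this set, had 80.4 ± 28.95 against 55.2 ± 7.41 TPM and 75.1 ± 12.9 against 54.8 ± 8.73 TPM (SD, n = 3 each).

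Others of the list were higher at 60 min, of which TOB2, MCL1 and SRF were singled out after their values were seen. TOB2, an antiproliferative regulator, had 72.2, 59.9 and 36.8 TPM against 129.99, 91.5 and 103 TPM. MCL1, an apoptosis inhibitor with a short-lived mRNA, had 149, 121 and 162 TPM against 230.2, 187 and 226 TPM. SRF, the factor that drives FOS and EGR1, had 41.4, 33.1 and 23.4 TPM against 84.8, 52.8 and 51.9 TPM, and in each of these the groups did not overlap. JUN overlapped, with means of 393 and 353 TPM. Of the p53 target list 8 of 21 stood apart upward and 0 downward, beside 17.5% and 6.09% of all genes. The list median lay 0.21 above all genes (0.13 without replicate 2 of 30 min). After median-ratio scaling 4 of the list stood apart upward and 0 downward, beside 9.86% and 11% of all genes. PMAIP1, a BH3 apoptosis gene, had 374 ± 43.8 against 469 ± 29.5 TPM (SD, n = 3 each), and MDM2, which degrades p53, overlapped.

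**Figure D3:**
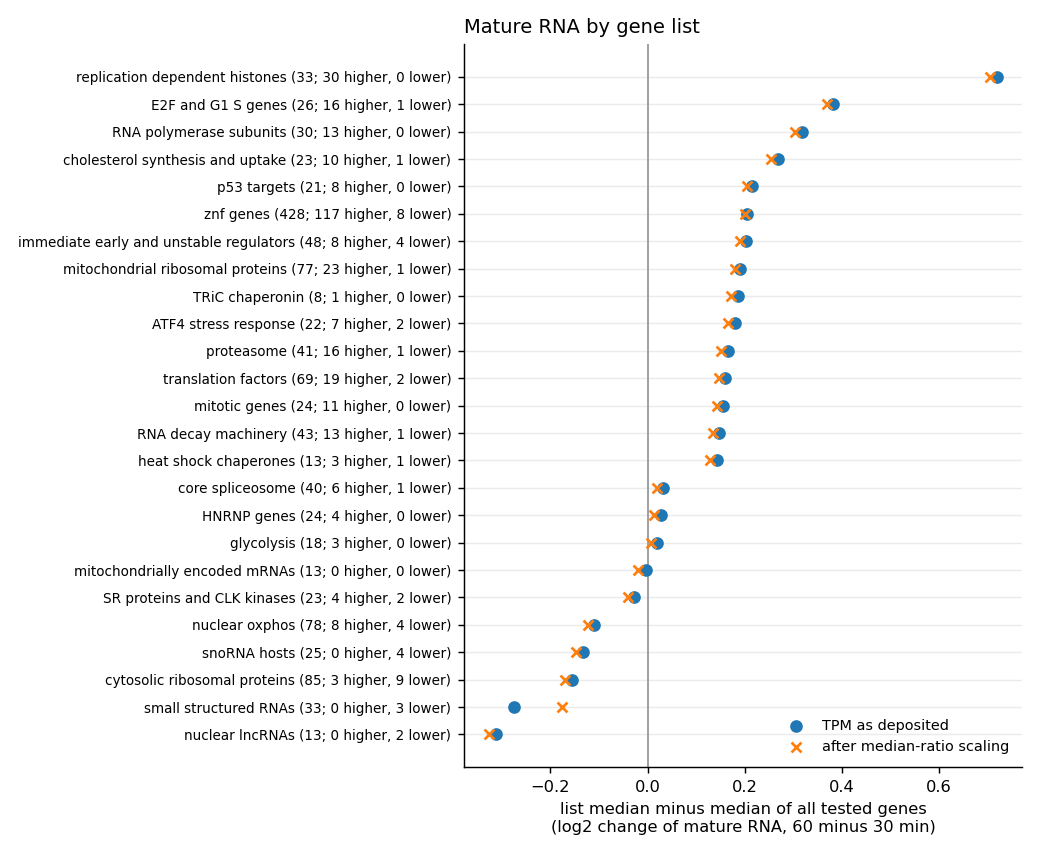
Median log2 change of mature RNA from 30 to 60 min for 25 gene lists, minus the median of all 16468 genes tested, with TPM as deposited and after median-ratio scaling; brackets give the genes tested and how many had all 60 min libraries above or below all 30 min libraries. Histones lie at 0.72 and G1/S genes at 0.38, while ribosomal protein genes lie at -0.15.

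Ribosomal protein mRNAs lay below the median of all genes. Of 85 cytosolic ones, 3 stood apart upward and 9 downward, beside 17.5% and 6.09% of all genes, with a median of -0.15 against all genes (-0.068 without replicate 1 of 30 min). From 7.5 to 30 min 67 of the 85 had fallen, where 2.84% of all genes did. The summed level was 29213, 26016 and 26734 TPM at 30 min and 25119, 26391 and 29815 TPM at 60 min, so the groups overlapped. RPS29, a small-subunit protein, was lower in each 60 min library, with 214, 239 and 259 TPM at 30 min and 95.4, 162 and 160.3 TPM at 60 min (log2 change -0.80, SE 0.22, limma adjusted p = 0.28), after a mean of 898 TPM at 7.5 min. RPL37, RPL38 and RPS21 had means of 163, 204 and 137 TPM against 95.5, 138 and 94.9 TPM, with no overlap. These genes and RPS29 were singled out after their values were seen. RPL4 lay the other way, with 1000.1 ± 68.02 against 1151 ± 52.7 TPM (SD, n = 3 each). Nuclear genes of oxidative phosphorylation (8 of 78 upward, 4 downward) lay at -0.11, or at -0.017 without replicate 1 of 30 min, though ATP5F1B, the catalytic subunit of ATP synthase, was higher, with 276 ± 16.6 against 352 ± 25.3 TPM (SD, n = 3 each).

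Of 25 snoRNA host genes 0 stood apart upward and 4 downward, beside 17.5% and 6.09% of all genes. Their median was -0.13 against all genes (0.0029 without replicate 1 of 30 min). After median-ratio scaling the counts were again 0 and 4, beside 9.86% and 11% of all genes. SNHG29 had 403, 321 and 381 TPM at 30 min and 262, 251 and 254 TPM at 60 min (log2 change -0.52, SE 0.18, limma adjusted p = 0.34). SNHG3 had 237 ± 8.35 against 169.5 ± 5.001 TPM and SNHG5 226 ± 34.6 against 149 ± 18.5 TPM (SD, n = 3 each). SNHG29, SNHG3 and SNHG5 were singled out after their values were seen. SNHG3 had risen by 30 min (limma adjusted p = 0.0027). The spliced RNA of many such hosts is a target of nonsense-mediated decay. Long nuclear RNAs (0 of 13 upward, 2 downward) lay at -0.31, but at 0.038 without replicate 1 of 60 min. MALAT1 and NEAT1, which stay in the nucleus, overlapped, with means of 568 and 561 TPM for MALAT1 and 142 and 124 TPM for NEAT1.

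SR splicing factors and their kinases (4 of 23 upward, 2 downward), hnRNP genes (4 of 24 and 0), core spliceosome genes (6 of 40 and 1), glycolysis genes (3 of 18 and 0) and mitochondrially encoded mRNAs (0 of 13 and 0) all had medians within 0.031 of all genes, and the sign of each changed with a single library or a scaling. Of all genes, 17.5% stood apart upward and 6.09% downward. SR genes held opposite members. SRSF3 had 482, 334 and 299 TPM at 30 min and 274, 233 and 245 TPM at 60 min, and SRSF4 had 93.1, 133.8 and 104 TPM against 150.1, 170.1 and 166 TPM, both without overlap. HNRNPA1, ENO1 (enolase) and MT-ND1 (a complex I subunit) overlapped, with means of 1104, 663 and 21636 TPM at 30 min and 1108, 734 and 22837 TPM at 60 min. Small structured RNAs (0 of 33 upward, 3 downward) included SNORD3A, the U3 snoRNA that guides ribosomal RNA cleavage, with 1320.3, 1068 and 1099.7 TPM against 669.8, 696 and 832 TPM, and RMRP, the RNA of RNase MRP, which overlapped. SNORA31B, a small nucleolar RNA, had a value of 0 in each 60 min library after 23.4, 27.3 and 92 TPM at 30 min, as did the U1 variant RNVU1-34 after 18.3, 37.3 and 51.2 TPM. RNVU1-34 was also at 0 in replicates 2 and 3 of both 7.5 and 45 min, with 24.9 and 14.9 TPM in replicate 1. Its zeros at 60 min therefore do not by themselves show a loss.

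The course up to 30 min set the starting point for each gene. Of the 16468 genes, 970 (5.89%) had risen from 7.5 to 30 min and 467 (2.84%) had fallen. As limma called 0 mature changes from 30 to 60 min, 0 of either set were called as going on or as turning. Of the 970, 842 had a positive change after 30 min and 128 a negative one, 471 (48.6%) stood apart upward and 22 (2.27%) downward, and the median change was 0.35 after 1.17 before. Of the 467 that had fallen, 340 had a positive change and 127 a negative one, 102 (21.8%) stood apart upward and 15 (3.21%) downward, with a median of 0.19 after -1.40. Over all genes tested 17.5% stood apart upward and 6.09% downward, with a median change of 0.12. The upward share and median of the 467 were near these. The values at 30 min enter both steps, so an error there moves them in opposite directions.

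Levelling off was called where the 95% interval of the later change lay within 1.5-fold of no change. This held for 96 of the 970 (9.90%) and 69 of the 467 (14.8%), beside 640 of all genes (3.89%). Within 2-fold it held for 555 and 301. Passing from 7.5 to 30 min and having a narrow later interval both favour a small standard error in the same fit. The higher shares among the 970 and the 467 therefore do not show that these RNAs levelled off more often. The 5 most abundant of the 96 that rose and then levelled were SRRM2, HNRNPL, SRSF2, RBM39 and DDX3X. SRRM2, a nuclear speckle scaffold, had 642, 915 and 649 TPM at 30 min and 609, 745 and 602 TPM at 60 min, after a mean of 330.2 TPM at 7.5 min. HNRNPL had 711, 569 and 605 TPM against 678, 539 and 552 TPM, and its groups overlapped, as did those of SRSF2 and RBM39. SRSF2 had means of 516 and 532 TPM and RBM39 of 508 and 548 TPM. DDX3X, an RNA helicase of translation initiation, met the rule at 401 ± 26.1 against 458 ± 32.6 TPM (SD, n = 3 each), though its groups did not overlap.

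The 5 most abundant of the 69 that fell and then levelled were RACK1, RPS16, RPL6, RPLP0 and RPS4X. RACK1, a scaffold protein of the small ribosomal subunit, had a mean of 1529 TPM at 7.5 min, then 993, 952 and 887 TPM at 30 min and 998, 936 and 912 TPM at 60 min (log2 change 0.01, 95% interval -0.35 to 0.36). RPS16 had 922, 817 and 657 TPM against 679, 737 and 717 TPM, and RPL6, RPLP0 and RPS4X had means of 836, 652 and 828 TPM against 919, 714 and 757 TPM. The groups of all 5 overlapped. For the remaining 874 of the 970 and 398 of the 467 the interval was wider. Among the most abundant of these were SAT1, a polyamine acetyltransferase gene that had risen (means of 992 and 901 TPM), and RPS24, which had fallen (999 and 916 TPM). The slowing itself, the change from 30 to 60 min minus that from 15 to 30 min, was called by limma for 0 of 16468 genes (0%), with 614 at an unadjusted p under 0.05 (3.73%), and for 0 after median-ratio scaling.

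Mature changes differed by gene length. Among protein-coding genes the median change was 0.34 for 2251 genes under 10 kb, 0.33 for 3353 of 10 to 30 kb, 0.15 for 4144 of 30 to 100 kb, -0.00 for 2073 of 100 to 300 kb and -0.27 for 518 over 300 kb. In the shortest bin 603 genes (26.8%) stood apart upward and 47 (2.09%) downward, and in the longest 19 (3.67%) and 132 (25.5%). Measured per library against the mean of all protein-coding genes, those over 300 kb stood at -0.12 ± 0.021 for 30 min and -0.56 ± 0.11 for 60 min (SD, 3 libraries each), with no overlap and an exact permutation p of 0.1, the smallest possible. Those under 10 kb stood at -0.18 ± 0.16 and -0.03 ± 0.16 (SD, n = 3 each, exact permutation p = 0.4). The difference between longest and shortest genes in median change was -0.60, and it ran from -0.72 to -0.44 without any one library.

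**Figure D4:**
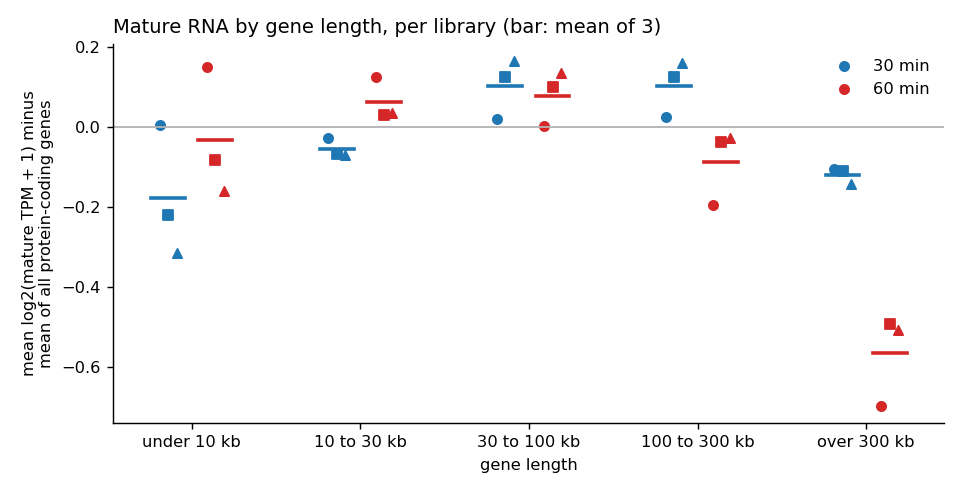
Mean log2(mature TPM + 1) of protein-coding genes in 5 bins of gene length, minus the mean of all protein-coding genes, for each library at 30 and 60 min; symbols are replicates and bars are means of 3. Genes over 300 kb lie at -0.12 at 30 min and -0.56 at 60 min, with no overlap.

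Of the 10 lowest genes by mature change, chosen in the same way as the highest (mean of at least 10 TPM, no overlap, no pseudogenes), 3 were over 300 kb long and 7 under 100 kb. GPHN, which spans 674 kb and encodes the synaptic scaffold gephyrin, had 52.9, 48.4 and 51.8 TPM at 30 min and 16.2, 26.1 and 26.2 TPM at 60 min (log2 change -1.16, SE 0.23, limma adjusted p = 0.18). SNX29 (598 kb), a sorting nexin, had 25.6, 37.1 and 45.9 TPM against 11.5, 10.8 and 19.4 TPM. PARD3B (1074 kb), the last of the 3, and, singled out after their values were seen, FARS2 (568 kb) and MAD1L1 (417 kb) had means of 26.04, 27.7 and 65.6 TPM against 11.4, 12.6 and 33.1 TPM. For all 5 genes the groups did not overlap. The 7 others of the 10 included EID3 (1.47 kb) at 19.97 ± 9.33 against 7.99 ± 4.49 TPM (SD, n = 3 each). Pseudogenes aside, the 10 highest by mature change with a mean of at least 10 TPM and no overlap were led by AL035425.2, with 42.4, 57.1 and 64.6 TPM against 207, 221 and 204 TPM (log2 change 1.95, SE 0.36, limma adjusted p = 0.18). The others were PAQR4, FADD, FZD6, MED31, CHAC2, TMEM129, TMEM250, RDH14 and RPP25L, from 1.62 kb (RPP25L) to 34.4 kb (FZD6) long. FADD, an adaptor of death receptors, had 18.6, 12.8 and 13.3 TPM against 62.04, 36.4 and 38.3 TPM.

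The median change of primary RNA was negative in all bins of length. It was -0.68 under 10 kb, -0.79 at 10 to 30 kb, -0.88 at 30 to 100 kb, -0.99 at 100 to 300 kb and -0.96 over 300 kb. Called lower were 920 of 1745 genes in the shortest bin (52.7%) and 320 of 394 in the longest (81.2%). The median change of the ratio of primary to mature RNA was -1.22 in the shortest bin and -0.93 in the longest, where the median mature change was also negative.

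Rates that the authors had estimated for each gene were set beside the changes as a description. The synthesis, processing and degradation scores come from the same labelled libraries. Over 13278 genes in 5 equal bins of the degradation score, the median mature change was 0.26 in the slowest-degraded bin, then 0.22, 0.15 and 0.12, and -0.10 in the fastest. Between 7.5 and 30 min the medians were -0.29, 0.20, 0.30, 0.36 and 0.30, lowest in the slowest bin. Genes whose primary RNA fell had median scores of 0.28 for synthesis and 0.12 for processing, and those not called -0.09 and -0.20.

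The balance between cytoplasm and nucleus came from other, fractionated libraries. In 5 equal bins of it, from most nuclear to most cytoplasmic, the median mature change was -0.16, 0.06, 0.19, 0.28 and 0.35, with 4.56% of genes apart upward in the most nuclear bin and 30.6% in the most cytoplasmic. Spearman's rho across the 13278 genes, which are not independent, was 0.40. From 7.5 to 30 min the medians were 0.24, 0.24, 0.26, 0.19 and -0.07, without that order.

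**Figure D5:**
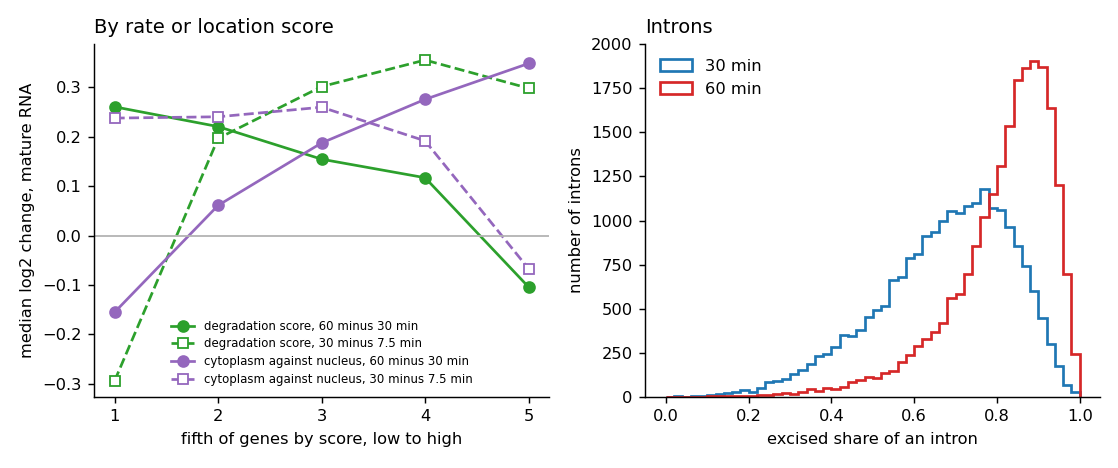
Left, median log2 change of mature RNA in 5 equal bins of genes, ordered by the authors' degradation score or their score of cytoplasm against nucleus, for 60 minus 30 min (filled, solid) and 30 minus 7.5 min (open, dashed); right, number of introns by excised share at 30 and 60 min. The most cytoplasmic bin lies at 0.35 for the later step, and the median intron moved from 0.70 to 0.84.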

How the data were processed

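The authors deposited TPM for primary and mature RNA of 63568 gene entries, 25068 of them without a primary value. The tools named by the submitters' processing notes are RSEM 1.2.11 and Bowtie 1.0.1, with hg19 as genome build. The annotation, per the file headers, was GENCODE 19 with an added isoform per locus (primary), and intronless genes have both kinds summed. TPM carry no read depth, so the depth is unknown. The authors deposited the excised share as a fraction (bam2ssj, more than 5 reads in all 3 replicates, averaged), log10 intron length, distances, and MaxEnt and GC features. The authors' rate scores are centred log values from INSPEcT. The authors' balance score is a log2 ratio of cytoplasm to nucleus.

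Genes were named with GENCODE 29 and a symbol table; 84.9% of genes tested had a symbol. Changes were fitted with limma 3.58.1 (R 4.3.3, moderated with a mean trend) on log2(TPM + 1), or log2((primary + 0.1)/(mature + 0.1)) for the ratio, over all 15 labelled libraries with labelling time as the only term. The method was also run on simulated mature values with independent noise in each library, and the outcome is not given here. Same-numbered libraries did not deviate together in that simulation, so it does not cover that feature of the data. Exact permutation tests used scipy 1.17.1. Same-numbered libraries of primary RNA deviated together (r 0.63, 0.17 and 0.55 between 30 and 60 min), least in replicate 2. The primary values given above come from the fit without pairs unless pairs are named. With the same-numbered libraries as a block, 11902 genes were called lower and 13 higher.

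Named genes were to be the largest passing changes, the most abundant members of each list and class of course, and the largest changes of introns. As no mature change passed, the 10 highest and 10 lowest non-overlapping genes (no pseudogenes) with a mean of at least 10 TPM stood in for them, and further members of lists were singled out after their values were seen. Beyond those marked above, these include MYC, CCNE1, E2F3, RRM2, MSMO1, KLF6, ATF3, FOS, SRSF3 and SRSF4. The gene set and the 26 lists were chosen with earlier results of these data known. Alternatives were another pseudocount, filters, scalings, fits and left-out libraries. The 5 exon inclusion columns were not used. Not every gene that the naming rule selects is given with values, and some members of the cholesterol list are not reported here.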

Additional observations from a re-analysis of the deposited data

How the results depend on the processing

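Of 391 recomputed values for 46 results, 335 moved by less than the spread between replicates or, for counts, by less than 1.5 times. The replicate block raised mature calls from 0 to 72 higher and 14 lower, among them 8 histones higher and SNX29, GPHN and RPS29 lower; same-numbered mature libraries deviated together with r of 0.34, 0.079 and 0.28, below the limit for pairs in one, so these calls rest on a shared number only. With the block 17 ratios of primary to mature RNA were called higher, and 0 genes slowed. Mature calls were 2 higher and 2 lower without a filter, 1 and 2 with 6 libraries only or without the 45 min libraries, and 0 and 0 to 1 without single libraries. The median mature change was -0.0095, 0.018 and 0.0036 after median-ratio, quantile and within-kind scaling.

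Primary genes called higher were 35 without a filter, 2 at a mean of at least 5 TPM, 3 after median-ratio scaling, 20 in 6 libraries, 14 without the 45 min libraries and 1 to 13 without single libraries. Those called lower were 6386 without a filter, 5, 8 and 5 after median-ratio, quantile and within-kind scaling, and 1192 to 10402 without single libraries. Median-ratio scaling with the replicate block, added after seeing the data, gave 102 higher and 51 lower. The median primary change was -0.36 without a filter, where low genes enter, and -3.1e-05, -0.031 and -0.076 after median-ratio (with or without the block), quantile and within-kind scaling; scaling sets it near 0 by construction. Ratios called higher were 5 with at least 1 TPM of primary RNA, 30 in 6 libraries and 4 to 12 without single libraries, and ratios called lower 2318 to 6563.

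The levelled genes were 555 and 301 within 2-fold, and 13 and 14 when counted from 15 min. Introns higher by at least 0.2 were 5225, and those lower 5, with 257 lower by at least 0.05. Against all genes, quantile normalization gave -0.11 for SR proteins, 0.087 for translation factors and -0.018 for the core spliceosome. Without single libraries the list medians ran from -0.16 to -0.017 for oxidative phosphorylation, -0.11 to 0.034 for SR proteins, 0.13 to 0.24 for p53 targets and 0.18 to 0.32 for polymerase subunits. Unless a construction is named, the cause was not tested. Read depth is unknown, so the limit it sets cannot be stated.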
